A study of Mus musculus with 20 samples.

Results

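The 10 genes described here encode subunits of the transcription factor NF-κB (Nfkb1, Nfkb2, Rela and Relb), IκB-family proteins that bind those subunits (Nfkbia, Nfkbie, Nfkbiz and Bcl3) and regulators of the ubiquitin signals upstream of NF-κB (Tnfaip3 and Birc3). They were chosen by name, as the rows of the count table whose mouse Ensembl ID maps to these symbols, and all 10 of 10 were found among 55891 gene IDs. The cells were primary renal tubular epithelial cells of strain B6.129-Ptprz1tm1Nmo, so knockout (KO) and heterozygous (het) cells both carried the targeted Ptprz1 allele and no wild-type cells were included in the comparisons. The gene Ptprz1 codes for a tyrosine phosphatase that spans the cell membrane. KO cells and het cells were each sequenced after 24 h with LPS at 100 ng/mL and IFNγ at 10 ng/mL (stimulated), and without treatment (control). Each of the 4 groups had 5 libraries, 20 in all, with total counts of 12899528 to 20411411. The labels name 10 animals and give no age. Animals 5 and 7 each appear once as KO and once as het. Levels are given as CPM, a count scaled to a common library total and corrected for library composition, and differences as log2 fold changes ± SE, stimulated over control or KO over het.

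NF-κB dimers are held in the cytoplasm of resting cells by IκB proteins. LPS acts through Toll-like receptor 4 and the adaptor MyD88 to activate the IκB kinases, which mark IκB for destruction and free the dimers to enter the nucleus. Several of the genes then switched on encode inhibitors of the pathway itself, so that Nfkbia and Tnfaip3 are classical negative feedback genes. In the kidney tubule, NF-κB drives chemokines and adhesion molecules that recruit leukocytes during injury.

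The promoters of 4 of these genes are shown because Nfkbia, Tnfaip3 and Bcl3 rose after stimulation in both genotypes, while Nfkb2 carries similar motif matches and was not called in either. Each sequence is RefSeq's 300 bases around the most upstream listed transcription start in GRCm38.p6, read 5′ to 3′ on the gene's strand, with the start base counted as position 0. Capitals mark matches on either strand to a loose form of the NF-κB motif (GGGA and CC separated by any 4 bases) or to the shorter GGGANTTCC, and the marked places overlap where both match.
Nfkbia, chr12:55492598-55492897, minus strand: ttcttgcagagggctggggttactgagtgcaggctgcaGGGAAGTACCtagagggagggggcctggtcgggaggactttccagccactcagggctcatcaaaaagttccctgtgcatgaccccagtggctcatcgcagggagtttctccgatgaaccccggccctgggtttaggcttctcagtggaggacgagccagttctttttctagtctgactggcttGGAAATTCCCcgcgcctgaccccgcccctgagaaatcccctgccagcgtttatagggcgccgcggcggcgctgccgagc
Tnfaip3, chr10:19015361-19015660, minus strand: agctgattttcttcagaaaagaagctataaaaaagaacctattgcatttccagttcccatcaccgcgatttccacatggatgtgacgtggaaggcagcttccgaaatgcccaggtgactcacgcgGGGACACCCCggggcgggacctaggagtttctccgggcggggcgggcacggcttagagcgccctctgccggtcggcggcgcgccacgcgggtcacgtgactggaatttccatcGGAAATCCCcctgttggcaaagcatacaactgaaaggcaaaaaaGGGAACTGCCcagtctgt
Bcl3, chr7:19822706-19823005, minus strand: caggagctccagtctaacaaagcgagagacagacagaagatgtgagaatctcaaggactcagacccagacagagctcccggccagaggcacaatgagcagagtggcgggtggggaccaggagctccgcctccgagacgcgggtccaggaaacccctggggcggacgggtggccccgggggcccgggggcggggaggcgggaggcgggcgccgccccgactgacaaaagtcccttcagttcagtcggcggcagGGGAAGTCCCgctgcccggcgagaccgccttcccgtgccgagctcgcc
Nfkb2, chr19:46304487-46304786, plus strand: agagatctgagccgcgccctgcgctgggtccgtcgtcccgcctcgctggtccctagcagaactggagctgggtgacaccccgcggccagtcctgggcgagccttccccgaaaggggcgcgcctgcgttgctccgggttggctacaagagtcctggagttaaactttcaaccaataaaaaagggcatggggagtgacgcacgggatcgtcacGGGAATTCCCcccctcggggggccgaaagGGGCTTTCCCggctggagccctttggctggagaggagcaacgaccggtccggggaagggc
The Nfkbia promoter held GGAAATTCCC at positions −29 to −20, which on the other strand also matches a stricter form (GGGA, any base, then TTTCC). Tnfaip3 held GGAAATCCC at positions −12 to −4. The Bcl3 promoter held GGGAAGTCCC at positions 2 to 11, just past the start. Nfkb2 held GGGAATTCCC at positions −39 to −30 and GGGCTTTCCC at positions −10 to −1. RefSeq promoters were matched for 7 of the 10 genes. Of the genes not shown, Birc3 and Rela held a loose match at positions −57 to −48 and −217 to −208, and Nfkbie held none. Promoters at listed starts of Nfkb2 further downstream held GGGACTTTCC, which also matches the stricter form. Among 32851 RefSeq promoters of this length the loose form was found in 20.7%, GGGANTTCC in 1.68% and the stricter form in 0.411%. A match describes these letters and is not evidence of binding.

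Before any response is read, 4 libraries have to be set apart. In animals 8 (KO) and 4 (het), interferon-induced genes went against the stimulation label. Nos2 (inducible nitric oxide synthase) had 0 CPM in the library labelled stimulated of each of these animals, and 202 CPM (animal 8) and 82.8 CPM (animal 4) in the library labelled control. In the other 16 libraries Nos2 reached 1255 to 3564 CPM after stimulation and at most 0.219 CPM in controls. The 4 libraries were recognised by such genes after the data were seen. Each response below is therefore given for the 16 libraries without animals 4 and 8, with 4 libraries per group, and for all 20 as labelled, and what was kept describes those libraries rather than giving independent evidence of a response.

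The remaining facts of the whole series that bear on these genes are few. Ptprz1 was at most 0.453 CPM in the KO and at most 0.255 CPM in the het libraries, so it could not check the genotype labels. The tubule markers Pax8 and Cdh16 were detected in every library, at no less than 134 and 22.9 CPM. The epithelial markers Cdh1, Epcam and Krt8 fell to 0.365, 0.146 and 1.13 CPM in the lowest library of each. Aqp1 was at 0 in 1 library, and the proximal tubule transporter gene Slc34a1 was at 0 in 17 of 20. Summed levels of 7 fibroblast markers ran from 33.4 to 14694 CPM. The highest sums were those of both libraries of animal 7, at 12739 CPM in the one labelled stimulated KO and 14694 CPM in the one labelled control het. Markers of endothelium summed to at most 16.1 CPM in any library and those of podocytes to 90.1 to 552 CPM. In these bulk cultures fewer cells of a type and less RNA per cell cannot be told apart.

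Stimulated tubular cells held more mRNA of 4 of the 6 inhibitors and regulators of NF-κB in KO and of 5 of the 6 in het cells, and of 1 of its 4 subunits in both (edgeR). In the 16 libraries Nfkbiz, Nfkbia, Tnfaip3, Bcl3 and Nfkb1 rose in KO and in het cells, and Birc3 passed in het cells alone, without passing a test of the difference between genotypes. That is 5 of 10 genes in KO cells, where 4.81% of all 14630 tested genes were called higher, and 6 of 10 in het cells, where 5.67% were (edgeR quasi-likelihood test, Benjamini-Hochberg adjusted p under 0.05). None of the 10 was called lower, beside 0.95% of all genes in KO and 1.48% in het cells, and in either direction 5.76% and 7.15% of all genes were called. The median log2 fold change of the 10 genes was 0.90 in KO and 1.21 in het cells, beside −0.0059 and −0.026 over all tested genes. The 6 tested fibroblast markers had a median of 0.97 in KO and −2.35 in het cells with none called (0 and 0 at an unadjusted p under 0.05). Animal 7 gave a stimulated KO and a control het library, whose 7 fibroblast markers summed to 12739 and 14694 CPM. The other stimulated KO libraries of the 16 summed to 970 to 1202 CPM, against 1180 to 1978 CPM in KO controls. The other het controls summed to 53.6 to 978 CPM, against 33.4 to 1638 CPM in stimulated het libraries. Of the 9 tested leukocyte markers 8 were positive in KO and 5 in het cells, with medians of 0.77 and 0.60 and none called (2 and 0 at an unadjusted p under 0.05). The part of these cells in the values was not tested.

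**Figure D1:**
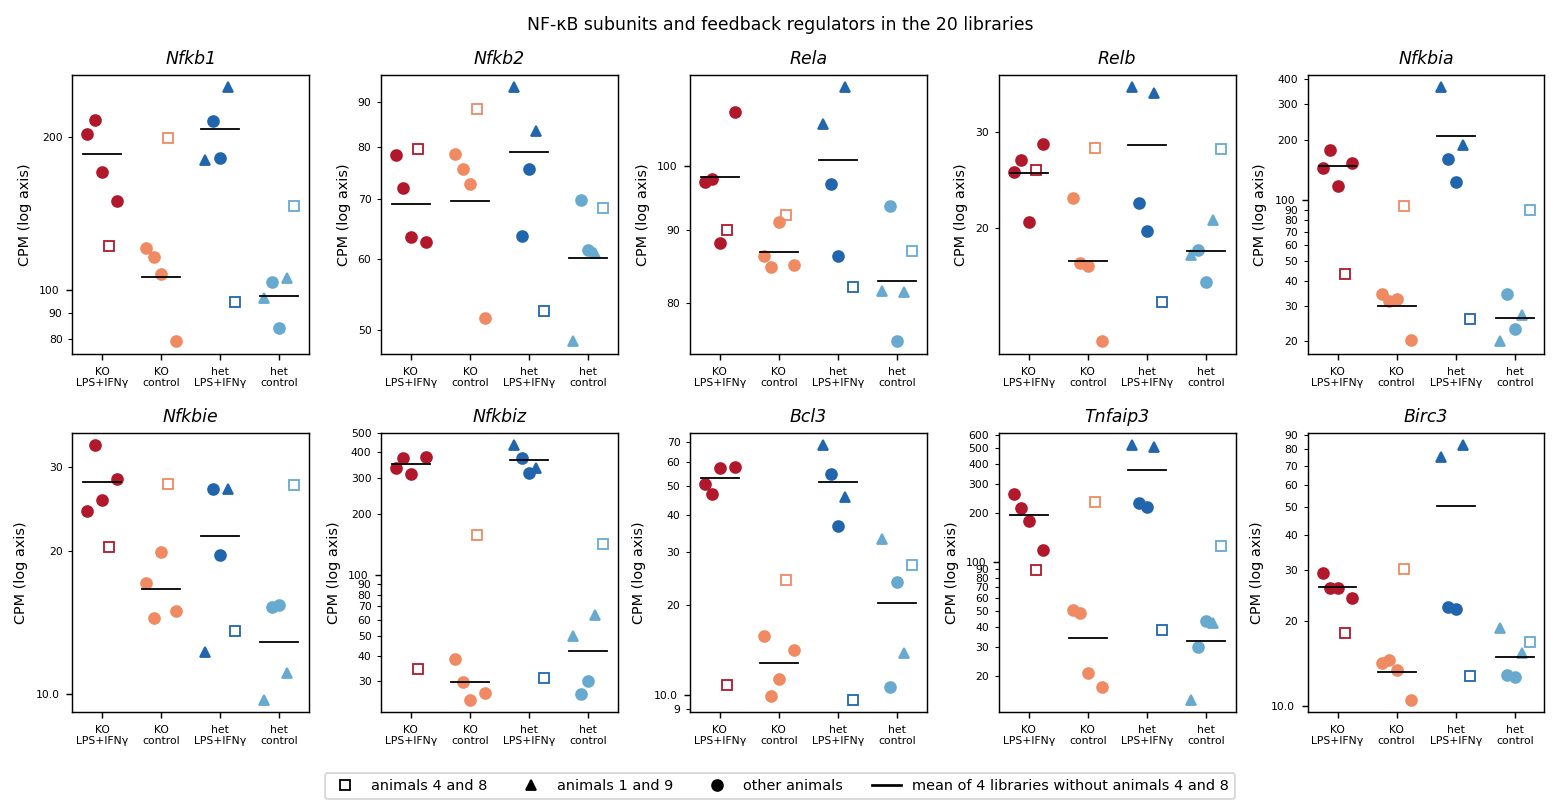
Level of each gene (CPM, log axis) in every library, with KO stimulated, KO control, het stimulated and het control from left to right. Horizontal lines are means of the 4 libraries per group without animals 4 and 8 (open squares), triangles are animals 1 and 9, and Nfkbiz shows stimulated libraries at 314 to 433 CPM against controls at 24.4 to 63.5 CPM once the open squares are set aside.

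Nfkbia encodes IκBα, the inhibitor whose destruction and resynthesis time the NF-κB response. It had 144, 177, 118 and 154 CPM in stimulated KO libraries, against 34.4, 31.8, 32.6 and 20.4 CPM in KO controls. The stimulated het libraries held 365, 160, 123 and 188 CPM of Nfkbia, against 19.997, 34.3, 23.1 and 27.0 CPM in het controls. Every stimulated library lay above every control, and the library of animal 1 stood highest. The rise was 2.31 ± 0.30 in KO and 3.001 ± 0.31 in het cells, or 4.97-fold and 8.01-fold (edgeR adjusted p = 0.000147 and 1.42e-05, n = 4 per group). Leaving out animals 1 and 9, both genotypes stood at 2.32, with an SE of 0.20 in KO and 0.28 in het cells. Both passed (edgeR adjusted p = 2.16e-05 and 0.000622). In het cells that fit kept only the controls of animals 2 and 7 and the stimulated libraries of animals 2 and 5. Animals 5 and 7 are the ones labelled under both genotypes. As labelled, with 20 libraries, the differences were 1.58 ± 0.59 and 2.15 ± 0.60 and did not pass (edgeR adjusted p = 0.398 and 0.119, n = 5).

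Nfkbiz encodes an atypical, nuclear IκB that is needed for a set of secondary response genes such as Il6. Its stimulated KO libraries held 336, 378, 314 and 381 CPM, against 38.4, 29.7, 24.4 and 26.2 CPM in KO controls. Stimulated het libraries held 433, 376, 316 and 336 CPM, against 50.2, 26.1, 30.0 and 63.5 CPM in het controls. The groups were far apart and the stimulated libraries of both genotypes covered nearly the same range. The rise was 3.57 ± 0.26 in KO and 3.10 ± 0.26 in het cells, or 11.9-fold and 8.59-fold, and in KO cells it was the greatest of the 10 (edgeR adjusted p = 3.92e-07 and 1.34e-06). With 20 libraries the values were 2.39 ± 0.74 and 2.26 ± 0.73 (edgeR adjusted p = 0.325 and 0.170).

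Tnfaip3 encodes a ubiquitin-editing enzyme that shuts down signalling from Toll-like and tumour necrosis factor receptors. It had 261, 214, 177 and 118 CPM in stimulated KO libraries, against 50.8, 49.0, 20.8 and 17.2 CPM in KO controls. In het cells the stimulated libraries held 517, 229, 217 and 506 CPM, against 14.4, 30.3, 43.4 and 42.2 CPM in controls. The het libraries split, since those of animals 1 and 9 held more than 500 CPM and the other 2 lay within the KO range. The rise was 2.48 ± 0.46 in KO and 3.49 ± 0.48 in het cells, or 5.59-fold and 11.3-fold (edgeR adjusted p = 0.00355 and 0.000237). The het value was 2.61 ± 0.54 without animals 1 and 9 and still passed (edgeR adjusted p = 0.0203). As labelled it was 1.22 ± 0.73 and 2.56 ± 0.76 (edgeR adjusted p = 0.702 and 0.139).

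Bcl3 encodes an IκB-family protein that works in the nucleus with homodimers of the Nfkb1 and Nfkb2 products. The stimulated KO libraries held 50.9, 46.8, 57.4 and 57.6 CPM, against 15.8, 9.96, 11.3 and 14.2 CPM in KO controls. Stimulated het libraries held 68.2, 54.5, 36.9 and 45.9 CPM, against 33.1, 10.6, 23.8 and 13.9 CPM in het controls. Stimulated libraries lay above the controls in both genotypes, by a narrow margin in het cells, where the controls spread widely. The rise was 2.05 ± 0.31 in KO and 1.33 ± 0.30 in het cells (edgeR adjusted p = 0.000510 and 0.0126), and as labelled 1.57 ± 0.47 and 0.98 ± 0.46 (edgeR adjusted p = 0.321 and 0.363).

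Nfkbie, which encodes the related inhibitor IκBε, changed less. Its stimulated KO libraries held 24.2, 33.3, 25.5 and 28.3 CPM, against 17.1, 14.5, 19.9 and 14.95 CPM in KO controls, without overlap. Stimulated het libraries held 12.2, 26.9, 19.6 and 27.0 CPM, against 9.73, 15.2, 15.4 and 11.05 CPM in het controls, and here the groups overlapped through the stimulated library of animal 1. The difference was 0.74 ± 0.23 in each genotype and did not pass (edgeR adjusted p = 0.0825 in KO and 0.0738 in het cells). As labelled it was 0.49 ± 0.28 and 0.33 ± 0.28 (edgeR adjusted p = 0.678 and 0.663). DESeq2 called Nfkbie in both genotypes of the same 16 libraries (adjusted p = 0.0311 in KO and 0.0272 in het cells), and edgeR called it in KO cells without animals 1 and 9 (adjusted p = 0.00582). With the animal as a replicate block the het value was 0.82 ± 0.19 and passed (edgeR adjusted p = 0.0275, with 12 libraries), and it also passed in both genotypes without the stimulated library of animal 1 alone (edgeR adjusted p = 0.0196 in KO and 0.00850 in het cells).

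Birc3 encodes a ubiquitin ligase that restrains the alternative NF-κB pathway and protects cells from death signals. It had 29.4, 25.9, 26.0 and 24.0 CPM in stimulated KO libraries, against 14.2, 14.6, 13.4 and 10.6 CPM in KO controls. The stimulated het libraries held 75.3, 22.4, 21.9 and 82.4 CPM, against 18.8, 12.9, 12.7 and 15.4 CPM in het controls. Animals 1 and 9 again stood far above the other 2 stimulated het libraries. The difference was 1.00 ± 0.36 in KO cells, which did not pass although the groups were apart, and the rise was 1.75 ± 0.37 in het cells (edgeR adjusted p = 0.154 and 0.00838). Birc3, without animals 1 and 9, passed in both genotypes, at 1.00 ± 0.11 in KO and 0.81 ± 0.16 in het cells (edgeR adjusted p = 0.000155 and 0.0152). In the 20 libraries it was 0.57 ± 0.41 and 1.49 ± 0.42 (edgeR adjusted p = 0.794 and 0.124).

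Among the subunits Nfkb1, which encodes a precursor that is cut to a DNA-binding subunit, was the one that rose. Its stimulated KO libraries held 203, 217, 171 and 150 CPM, against 121, 116, 107 and 79.2 CPM in KO controls. Stimulated het libraries held 180, 216, 182 and 251 CPM, against 96.3, 104, 84.1 and 106 CPM in het controls. Stimulated and control libraries did not overlap in either genotype. The rise was 0.81 ± 0.16 in KO and 1.09 ± 0.16 in het cells, or 1.75-fold and 2.13-fold (edgeR adjusted p = 0.00536 and 0.000385), against 0.47 ± 0.25 and 0.78 ± 0.25 as labelled (edgeR adjusted p = 0.632 and 0.169).

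Rela, which encodes the subunit with the main activation domain of the canonical pathway, was nearly flat. It ranged over 88.2 to 109 CPM in stimulated KO libraries, against 84.8 to 91.3 CPM in KO controls. In het cells it ranged over 86.3 to 114 CPM after stimulation, against 75.1 to 93.6 CPM in controls. The difference was 0.17 ± 0.099 in KO and 0.28 ± 0.099 in het cells (edgeR adjusted p = 0.439 and 0.108), and as labelled 0.13 ± 0.090 and 0.21 ± 0.090 (edgeR adjusted p = 0.759 and 0.2999). The het value passed without the stimulated het library of animal 5 (edgeR adjusted p = 0.0448).

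The partners of the alternative pathway were not called by edgeR in the 16 libraries. Nfkb2, whose precursor is processed in that pathway, ranged over 62.7 to 78.4 CPM in stimulated KO libraries, against 51.6 to 78.6 CPM in KO controls. Its stimulated het libraries covered 63.7 to 93.4 CPM, against 48.5 to 69.8 CPM in het controls, and the differences were −0.012 ± 0.15 and 0.39 ± 0.15 (edgeR adjusted p = 0.987 and 0.153). As labelled the Nfkb2 differences were −0.043 ± 0.15 and 0.26 ± 0.15 (edgeR adjusted p = 0.987 and 0.5003). Relb encodes the dimer partner of the processed Nfkb2 product. It covered 20.4 to 28.5 CPM in stimulated KO libraries, against 12.3 to 22.7 CPM in KO controls, and the ranges overlapped. In het cells Relb had 36.3 and 35.5 CPM in the stimulated libraries of animals 1 and 9 and 22.2 and 19.7 CPM in the other 2, against 15.9 to 20.6 CPM in controls. The difference was 0.54 ± 0.21 in KO and 0.65 ± 0.21 in het cells (edgeR adjusted p = 0.202 and 0.0892). Relb passed in het cells by DESeq2 (adjusted p = 0.0475) and by edgeR without the stimulated het library of animal 5 (adjusted p = 0.0328). As labelled the Relb differences were 0.38 ± 0.24 and 0.35 ± 0.24 (edgeR adjusted p = 0.745 and 0.569).

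**Figure D2:**
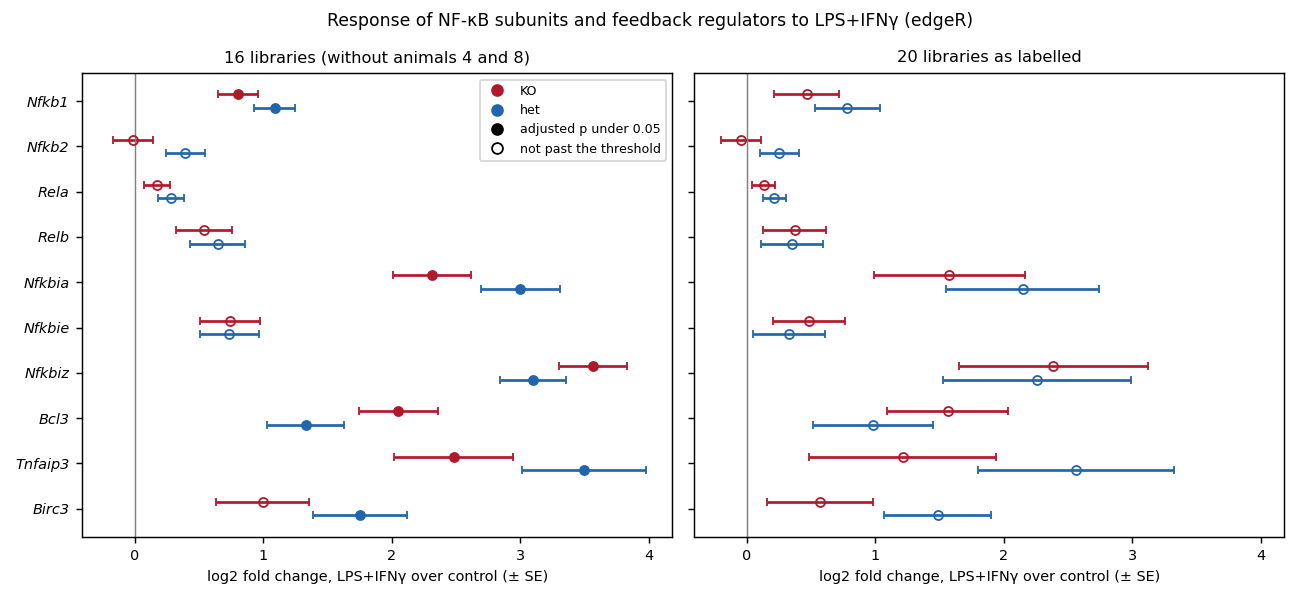
Log2 fold change of each gene, stimulated over control, with bars of ± SE, KO above het in each row, for the 16 libraries without animals 4 and 8 on the left and all 20 as labelled on the right. Filled points passed an edgeR adjusted p of 0.05, and they number 5 in KO and 6 in het cells on the left and 0 on the right.

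Counted by overlap instead of by test, stimulated libraries of the 16 lay wholly above controls for 7 of the 10 genes in KO cells, where 10.7% of all tested genes did, and for 6 in het cells, where 7.21% did. None of the 10 lay wholly below, beside 7.08% of genes in KO and 3.88% in het cells. The 7 genes in KO cells were the 5 called ones with Birc3 and Nfkbie. With 20 libraries as labelled all 10 genes overlapped in both genotypes, beside 0.35% of all genes wholly higher and 0.275% wholly lower in KO cells and 0.329% and 0.336% in het cells. With those 20 libraries 0% of genes was called by edgeR in either genotype, so none of the 10 was. At an unadjusted p under 0.05 there were 3 of the 10 in KO and 7 in het cells, and 1307 and 1981 of all 14568 genes. DESeq2 called Nfkbiz in KO cells and Nfkbia, Nfkbiz, Tnfaip3 and Birc3 in het cells, among 110 genes higher and 5 lower in KO and 435 higher and 48 lower in het cells. The fold changes themselves were positive for 9 of the 10 genes in KO and for 10 of 10 in het cells, with medians of 0.53 and 0.88, beside −0.0027 and −0.015 over all genes.

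Of the 10 animals, 8 gave a stimulated and a control library of 1 genotype, which allows the ratio to be taken within the animal. In the 6 animals other than 4 and 8, the stimulated library was higher in 6 of 6 for every gene except Nfkb2, which was higher in 3 of 6. The median log2 ratio was 3.47 for Nfkbiz, with a range of 2.39 to 3.92. It was 3.12 for Tnfaip3, with the widest range of the 10 genes, 2.35 to 5.12. Nfkbia followed at 2.60 and Bcl3 at 1.84, while Birc3 stood at 1.08, Nfkb1 at 0.96, Nfkbie at 0.77 and Relb at 0.70. Rela, at 0.26, was higher in all 6 animals by a small margin, and Nfkb2 was at 0.14. In animals 4 and 8 all 10 ratios were below 0.

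**Figure D3:**
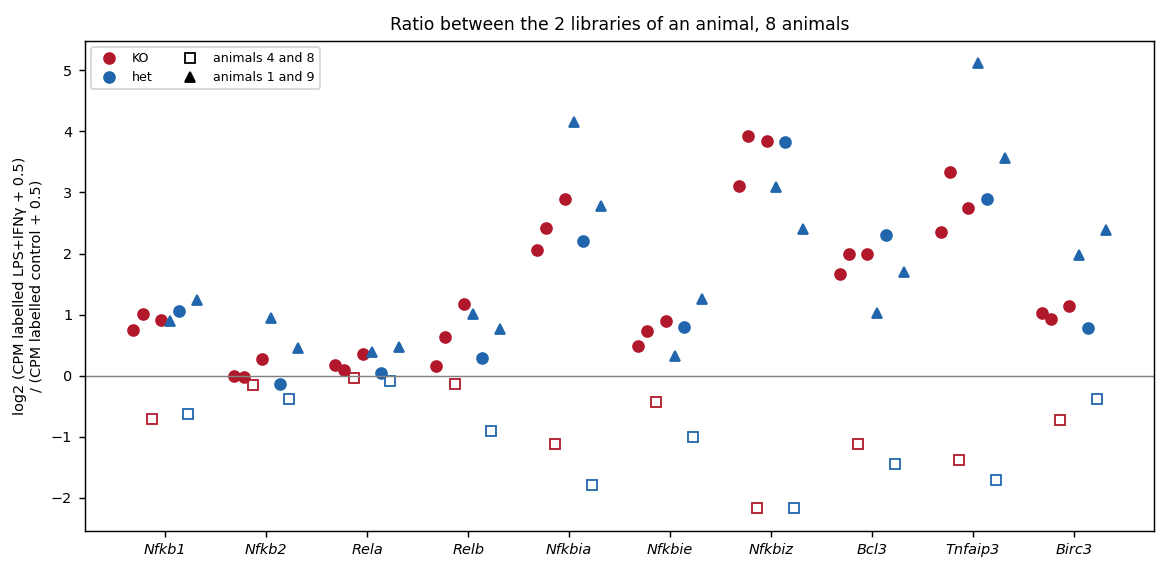
Log2 ratio of the library labelled stimulated to the library labelled control of the same animal, after adding 0.5 CPM to each, for 4 KO (red) and 4 het (blue) animals. Open squares are animals 4 and 8, which lie below 0 for every gene, while the other 6 animals lie above 0 for 9 of the 10 genes and cover −0.13 to 0.94 for Nfkb2.

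The 4 libraries set apart did not all take the same place for each gene. In the library labelled control of animal 8, Nfkbia had 94.2 CPM, above the 20.4 to 34.4 CPM of the other KO controls and below the 118 to 177 CPM of stimulated KO libraries. Tnfaip3 there had 233 CPM and Birc3 30.3 CPM, within and above the stimulated KO ranges of 118 to 261 and 24.0 to 29.4 CPM. On a log2 scale on which the other controls of the genotype are 0% and the other stimulated libraries 100%, this library stood at 72.4% for Nfkbia, 67.6% for Nfkbiz, 45.3% for Bcl3, 113% for Tnfaip3 and 130% for Relb. The interferon-induced genes Gbp2 and Tap1 stood at 72.1% and 76.7%. The library labelled control of animal 4 stood at 62.3% for Nfkbia, 57.5% for Nfkbiz, 58.8% for Tnfaip3 and 38.2% for Bcl3, but at 12.2% for Birc3, 104% for Relb and 162% for Nfkbie. Gbp2 and Tap1 stood at 59.8% and 65.0% there. The scale spans the response of each gene, which was not called for Relb (0.54 in KO and 0.65 in het cells) or Nfkbie (0.74 in het cells). For Nfkbia in het cells the response was 3.001, so the same percentage stands for a much smaller shift in Relb and Nfkbie.

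The library labelled stimulated of animal 8 took different places for different genes. This library had 0 CPM of Nos2, and its Nfkbiz, at 34.5 CPM, and Bcl3, at 10.9 CPM, lay within the ranges of the KO controls. Its Tnfaip3, at 88.7 CPM, lay above the 17.2 to 50.8 CPM of those controls and below every other stimulated KO library. Relb, at 25.6 CPM, lay within the stimulated KO range of 20.4 to 28.5 CPM, which overlaps the 12.3 to 22.7 CPM of the other KO controls. Nfkbia, at 43.3 CPM, lay just above the controls and below every other stimulated KO library. The library labelled stimulated of animal 4 had 25.7 CPM of Nfkbia, 31.1 of Nfkbiz, 38.1 of Tnfaip3 and 12.8 of Birc3, all within the ranges of the het controls. Whether labels were exchanged or the cells responded otherwise was not tested.

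**Figure D4:**
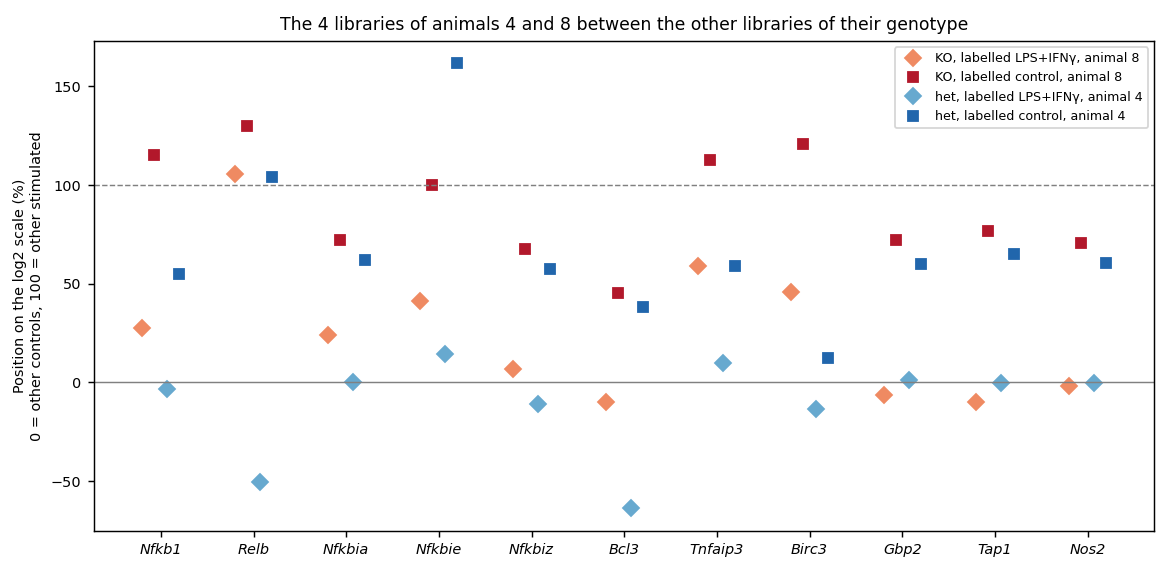
Position of the 4 libraries of animals 8 (KO) and 4 (het) on a log2 scale set by the 4 other control (0%) and 4 other stimulated libraries (100%) of their genotype, for genes whose 2 means differ by more than 0.5. The libraries labelled control (squares) stood at 72.1% and 59.8% for Gbp2, and the library labelled stimulated of animal 8 stood at 105% for Relb and 58.9% for Tnfaip3 but at 6.60% for Nfkbiz.

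Levels can be compared between genes only per transcript length, here as CPM per kb of the longest protein-coding transcript in GENCODE M21. Rela stood first in controls, at 31.99 ± 1.1 CPM per kb in KO and 30.5 ± 2.8 in het cells (SD, n = 4), and its range was apart from that of Nfkb1, which came next at 25.7 ± 4.5 and 23.7 ± 2.4. Nfkbia and Nfkb2 came next, overlapping each other, at 18.9 ± 4.1 and 18.1 ± 3.2 in KO controls and 16.5 ± 3.9 and 15.6 ± 2.3 in het controls. The other 6 genes were at or below 11.01 on average in controls, and most neighbours in that order overlapped.

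After stimulation Nfkbia headed the order, at 94.0 ± 15 CPM per kb in KO and 132 ± 68 in het cells, overlapping Nfkbiz at 85.6 ± 7.9 and 88.7 ± 13. Nfkb1 and Tnfaip3 followed and overlapped each other in both genotypes, at 45.0 ± 7.4 and 43.6 ± 14 in KO cells and 50.4 ± 8.1 and 83.1 ± 38 in het cells. Rela had moved to the fifth place, at 36.1 ± 3.2 in KO and 37.2 ± 4.4 in het cells. The last places were taken by Nfkbie, Relb and Birc3 at 11.4, 11.4 and 9.06 in KO cells.

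KO and het cells did not differ detectably in any of the 10 genes in either state. The labels list animals 5 and 7 under both genotypes. Without them edgeR also called 0 of 14776 genes between the genotypes of the 16-library set. There 736 genes after stimulation and 679 in controls had an unadjusted p under 0.05. After stimulation the largest differences in the 16 libraries were Birc3 at −0.94 ± 0.36 and Tnfaip3 at −0.93 ± 0.44, both lower in KO cells (edgeR adjusted p = 0.748 for each, unadjusted 0.0208 and 0.0526). Nfkbia was at −0.49 ± 0.29 and Nfkbie at 0.38 ± 0.23, and the other 6 genes lay between −0.19 and 0.051. All genes overlapped between the genotypes, where 0.984% of tested genes lay wholly higher and 0.656% wholly lower in KO cells. The count called was 0 of 14630 genes by edgeR and 0 by DESeq2, with 787 genes at an unadjusted p under 0.05, and Birc3 was the single one of the 10 among them. In the 20 libraries Birc3 was at −0.80 ± 0.41 and Tnfaip3 at −0.81 ± 0.72 (edgeR adjusted p = 1.00 for each), with 0 genes called by edgeR and by DESeq2 and 366 at an unadjusted p under 0.05. There all 10 genes overlapped too, beside 0.103% of genes wholly higher and 0.11% wholly lower.

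Those differences moved with 2 het animals. In their stimulated libraries animals 1 and 9 had 517 and 506 CPM of Tnfaip3 and 75.3 and 82.4 CPM of Birc3. The other stimulated het libraries had 217 to 229 CPM of Tnfaip3 and 21.9 to 22.4 CPM of Birc3, beside 118 to 261 and 24.0 to 29.4 CPM in stimulated KO cells. Without animals 1 and 9, an alternative chosen after seeing the data, Birc3 was at 0.25 ± 0.14 and so changed sign. Tnfaip3 was at −0.21 ± 0.44 (edgeR adjusted p = 0.981 for each). The het cells of that fit came from animals 2 and 7 in controls and animals 2 and 5 after stimulation. Of these, animals 5 and 7 are labelled under both genotypes. Animals 1 and 9 also differed in cell type markers. Of 10 leukocyte markers, 8 were higher in each of their 4 libraries than in each of the other 16. The summed leukocyte markers came to 116 to 274 CPM in the 4 libraries of animals 1 and 9 and to 23.7 to 74.2 CPM in the other 16. Adgre1, a macrophage marker, was at 2.85 and 29.6 CPM in the stimulated and 1.79 and 6.65 CPM in the control libraries of animals 1 and 9, and at most 1.16 CPM in the other 16, and the pan-leukocyte gene Ptprc was at 0.667 to 8.66 CPM in their 4 libraries and at most 0.518 CPM in the other 16. Their 7 fibroblast markers summed to 33.4 to 540 CPM, below the 911 to 14694 CPM of the others, and their 11 tubule markers to 1600 to 2129 CPM, above the 454 to 1464 CPM of the others. The part of these cells in the Tnfaip3 and Birc3 values was not tested.

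In control cells the differences between KO and het were Bcl3 at −0.67 ± 0.30 and Nfkbiz at −0.52 ± 0.24, both lower in KO (edgeR adjusted p = 0.892 for each, unadjusted 0.0400 and 0.0488). Nfkbie was at 0.37 ± 0.23 and the remaining 7 genes lay between −0.18 and 0.21. No gene of all 14630 was called by edgeR or by DESeq2, with 774 at an unadjusted p under 0.05, and all 10 genes overlapped, beside 0.875% of genes wholly higher and 1.03% wholly lower. The het controls highest in Nfkbiz were again those of animals 1 and 9, at 50.2 and 63.5 CPM, and without these animals Nfkbiz was at 0.086 ± 0.18 and Bcl3 at −0.43 ± 0.29 (edgeR adjusted p = 1 for each). In the 20 libraries Bcl3 was at −0.53 ± 0.46 and Nfkbiz at −0.18 ± 0.70, with 0 genes called by edgeR, 2 by DESeq2 and 499 at an unadjusted p under 0.05 (edgeR adjusted p = 0.999 for each). All 10 overlapped, beside 0.192% of genes wholly higher and 0.233% wholly lower.

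The difference between the responses, KO minus het, was tested as an interaction. It was −1.01 ± 0.62 for Tnfaip3, −0.76 ± 0.51 for Birc3, −0.69 ± 0.41 for Nfkbia and −0.41 ± 0.22 for Nfkb2, and 0.72 ± 0.42 for Bcl3 and 0.46 ± 0.34 for Nfkbiz (edgeR adjusted p = 1.00 for each). None of the 10 genes reached an unadjusted p of 0.05, and 0 of all genes were called by edgeR or by DESeq2, with 224 at an unadjusted p under 0.05. In the 20 libraries edgeR called 0 genes and DESeq2 1, which was not one of the 10, with 138 at an unadjusted p under 0.05. Without animals 1 and 9 the Tnfaip3 difference was −0.12 ± 0.63 and that of Nfkbia −0.0011 ± 0.33. The SEs are wide, so differences in response of about the size of the values above could not be told from none.

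Other genes of the pathway, taken from lists chosen by role, rose in part. The counts below stand beside 4.81% of all 14630 tested genes called higher in KO and 5.67% in het cells. The shares called lower were 0.95% and 1.48%. Of the 3 other Rel and IκB genes, 0 passed in KO and 2 in het cells of the 16 libraries. These were Nfkbib, encoding IκBβ, at 0.99 ± 0.21, and Rel, encoding the c-Rel subunit, at 0.72 ± 0.21 (edgeR adjusted p = 0.00910 and 0.0487). In KO cells they stood at 0.66 ± 0.21 and 0.20 ± 0.21 without passing (edgeR adjusted p = 0.0923 and 0.736), and neither was called in het cells without animals 1 and 9.

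Of 16 kinases and kinase partners upstream, 4 rose in each genotype, namely Ripk2, Ikbke, Tbk1 and Ripk1. Ripk2, a kinase downstream of the NOD receptors, was at 99.3 ± 24 CPM in stimulated and 16.2 ± 3.0 CPM in control KO cells (SD, n = 4), a rise of 2.61 ± 0.29, and it rose by 2.86 ± 0.30 in het cells. Ikbke, an IκB kinase-related kinase, rose by 1.24 ± 0.34 in KO and 1.79 ± 0.34 in het cells, Tbk1 by 0.54 ± 0.099 and 0.71 ± 0.10, and Ripk1 by 0.57 ± 0.075 and 0.61 ± 0.075 (edgeR adjusted p = 0.0462 or lower for each). The genes of the classical IκB kinase complex did not pass. Chuk was at −0.21 ± 0.16 in KO and 0.021 ± 0.16 in het cells, Ikbkb at 0.20 ± 0.14 and 0.28 ± 0.14, and Ikbkg at 0.64 ± 0.28 and 0.70 ± 0.28 (edgeR adjusted p = 0.161 or higher). Map3k14, the kinase that starts the alternative pathway, was at −0.45 ± 0.18 and −0.046 ± 0.18 without passing (edgeR adjusted p = 0.199 and 0.921).

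Of 9 adaptors and TRAF proteins, 2 rose in KO and 3 in het cells. Myd88, the adaptor of most Toll-like receptors, rose by 1.18 ± 0.20 and 0.82 ± 0.20, and Traf2, which carries Birc3 to receptors, by 0.73 ± 0.17 and 0.74 ± 0.17 (edgeR adjusted p = 0.0208 or lower). Tank rose by 0.79 ± 0.12 in het cells (edgeR adjusted p = 0.000602). The count was 3 in KO and 0 in het cells without animals 1 and 9, beside 1960 and 623 of all 14834 genes called.

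Among 14 other ubiquitin and RNA-decay regulators, 5 rose in KO and 6 in het cells. Zc3h12a, encoding an RNase that degrades inflammatory mRNAs, was at 42.9 ± 6.8 CPM in stimulated and 4.58 ± 0.75 CPM in control KO cells, and it rose by 3.22 ± 0.22 in KO and 3.4998 ± 0.23 in het cells (edgeR adjusted p = 2.05e-07 and 8.50e-08). Tnip3, whose product binds that of Tnfaip3, was scarce, at 3.65 ± 1.9 CPM in stimulated KO cells, against 0.0610 ± 0.048 CPM in KO controls, and 1.76 ± 0.97 CPM in stimulated het cells, against 0.0959 ± 0.036 CPM in het controls. Rnf31, a ligase that builds linear ubiquitin chains, rose by 1.42 ± 0.24 and 1.55 ± 0.24, and Tnip1 by 0.85 ± 0.19 and 1.02 ± 0.20 (edgeR adjusted p = 0.0161 or lower). Sharpin rose in KO cells by 0.48 ± 0.092, and Rbck1 and N4bp1 rose in het cells by 0.71 ± 0.17 and 0.58 ± 0.16 (edgeR adjusted p = 0.0403 or lower). The deubiquitinase gene Cyld, at 0.019 ± 0.21 and 0.39 ± 0.21, and Birc2, the closest relative of Birc3, at 0.20 ± 0.27 and 0.044 ± 0.26, did not pass (edgeR adjusted p = 0.321 or higher). Leaving out animals 1 and 9, the count was 7 in KO and 3 in het cells, beside 1960 and 623 of all 14834 genes called.

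Of 27 listed NF-κB target genes 26 were tested, and 16 rose in KO and 20 in het cells, none fell. Nos2 was at 2475 ± 961 CPM in stimulated KO cells and 0.0974 ± 0.094 CPM in KO controls. Animals 4 and 8 were set apart by Nos2 and other interferon-induced genes. Its rise in the 16 libraries, included in these counts, is therefore not independent evidence of a response. Ccl2, a monocyte chemokine gene, rose by 7.30 ± 0.67 in KO and 8.09 ± 0.69 in het cells, and Cxcl10, a T-cell chemokine gene, by 9.09 ± 0.83 and 9.98 ± 0.87. Irf1 rose by 4.98 ± 0.32 and 5.01 ± 0.32, Icam1 by 4.36 ± 0.51 in KO cells and Csf1 by 2.16 ± 0.24 in het cells (edgeR adjusted p = 4.79e-05 or lower for these genes). Several of them are induced by IFNγ as well. With the 20 libraries edgeR called 0 genes of these lists in both genotypes. There 11 target genes in KO and 20 in het cells had an unadjusted edgeR p under 0.05, beside 1307 and 1981 of all 14568 genes. DESeq2 called 1 and 15 of the target genes, beside 115 and 483 of all genes. Without animals 1 and 9 the count of target genes was 19 in KO and 10 in het cells. Calls over all genes moved the same way, to 1960 and 623 of 14834 genes, from 843 and 1046 of 14630.

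Between the genotypes edgeR and DESeq2 called 0 genes of these 5 lists in either state or in the difference of responses, so the genes named next are the lowest p-values of each list and not calls. After stimulation 2 of 26 target genes had a positive value, KO over het, and the median was −0.82, beside −0.0023 over all genes, with 4 at an unadjusted p under 0.05. Ccl20, a chemokine gene for dendritic and lymphoid cells, was at 0.322 ± 0.17 CPM in KO and 3.12 ± 4.7 CPM in het cells, and Cxcl2, a neutrophil chemokine gene, at 10.9 ± 5.0 and 47.8 ± 46 CPM (SD, n = 4). Leukocyte markers were lower in KO in 9 of 9 tested after stimulation, with a median of −3.12, and 8 had an unadjusted edgeR p under 0.05. Fibroblast markers were higher in KO in 6 of 6 tested, with a median of 1.99. None of these markers was called, and the part of these cells in the values was not tested. Among the kinases Chuk was at −0.41 ± 0.16 and Ikbke at −0.85 ± 0.33, and among the adaptors Ticam1 at 0.30 ± 0.13 and Tank at −0.26 ± 0.12. Rel stood at −0.36 ± 0.21, Nfkbib at −0.22 ± 0.21, Tnip3 at 1.05 ± 0.54 and Tnip2 at 0.30 ± 0.16 (edgeR adjusted p = 0.748 or higher for all of these).

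In controls Cxcl2 was at 0.106 ± 0.17 CPM in KO and 0.921 ± 0.89 CPM in het cells. Ccl20 was at 0.0146 ± 0.029 and 0.233 ± 0.30 CPM. Of 9 tested leukocyte markers 0 were higher in KO controls, with a median of −3.78 and 7 at an unadjusted edgeR p under 0.05. Of 6 fibroblast markers 1 was higher, with a median of −1.06. The part of these cells in the values was not tested. Tnip1 was at 0.43 ± 0.19, Birc2 at −0.45 ± 0.27, Traf3 at 0.29 ± 0.15, Traf5 at 0.46 ± 0.25, Map3k14 at 0.23 ± 0.18 and Tab3 at −0.22 ± 0.17 (edgeR adjusted p = 0.892 for each). Rel and Nfkbib were at 0.16 ± 0.21 and 0.11 ± 0.21 (edgeR adjusted p = 0.913 and 0.943). In the difference of responses Tank was at −0.40 ± 0.17, Ticam1 at 0.35 ± 0.18, Irak2 at −0.78 ± 0.44, Map3k14 at −0.41 ± 0.25, Cflar at −0.44 ± 0.25, Rel at −0.52 ± 0.29, Nfkbib at −0.33 ± 0.30 and Sharpin at 0.20 ± 0.13 (edgeR adjusted p = 1.00 for each). Tank alone of these had an unadjusted p under 0.05, at 0.0343. Nos2 and Tnip3 were also among the lowest p-values, but with at most 7 counts over the controls of a genotype no fold is given.

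The genes whose levels across the 20 libraries were most like those of 3 of the 10 genes were found by the root mean square difference of centred log2 CPM, among 9656 genes. For Nfkbia they were Parp11, Psme1 and Ifi35, with differences of 0.33, 0.38 and 0.39 log2 units. For Relb they were Traf2, Cstb and Cebpg, at 0.19, 0.20 and 0.21. For Tnfaip3 they were Zc3h12a, Nmi and Psme2, at 0.55, 0.66 and 0.67. The difference is not scaled to the spread of a gene, so its size cannot be compared between the 3 genes. Relb covered 12.3 to 36.3 CPM over the 20 libraries and Tnfaip3 14.4 to 517 CPM. These are likenesses within the same libraries, including those of animals 4 and 8.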

How the data were processed

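RNA of 20 libraries was sequenced. The deposited table holds whole-number estimated counts per Ensembl gene. Per the submitters' processing notes the build was GRCm39 and the tools were Salmon 1.10.2, DESeq2 1.45.3, FastQC 0.11.9 and R 4.4.1, with no role named for each. The summing of transcripts and the strand setting: not given in the sources used here. Rounding changed 0 values and 0 columns were left unused. Symbols came from GENCODE M21 (92.0% of IDs) and promoters from RefSeq's GRCm38.p6, another build, so no position was joined to the counts.

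Counts were tested with edgeR 4.0.16 in R 4.3.3 (TMM, filterByExpr, robust quasi-likelihood fit of 4 group means, no block), with Benjamini-Hochberg adjustment over all tested genes and a threshold of 0.05. SE is the size of the log2 fold change divided by the square root of F. DESeq2 1.42.0, other scalings and filters, single libraries left out, animals 5 and 7 left out, the animal as block and, added later, animals 1 and 9 left out were the alternatives. The fits were tested on simulated data.

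The animal numbers in the labels pair libraries. Deviations from group means correlated at −0.331 and −0.223 in animals 8 and 4 and at 0.196 to 0.652 in the other 8. Replicates differed beyond counting noise (chi-square per degree of freedom 17.2 to 358 over 40 pairs). Within each group every library carried a different animal number. The p-values therefore reflect the spread between libraries of different animals, which may be technical in part. Nothing tells whether the libraries of 1 animal were separate cultures. Depth (median 17431039 counts) leaves each of the 10 genes far above detection.

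The members and lists were chosen with earlier results of these data known. The text names all 10 genes and, per list and comparison, up to 5 called genes with the lowest p. Where none was called, the 2 with the lowest p are named. Some other genes are named after their values were seen (Nos2, Gbp2, Tap1, Chuk, Ikbkb, Ikbkg, Map3k14, Cyld, Birc2 and the markers).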

Additional observations from a re-analysis of the deposited data

Results flagged for a closer look

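In groups of 5 libraries a single library was called far from the rest when its gap to the nearest, relative to the range, passed Dixon's limit, which chance passes in about 1 of 20 groups. Of 40 groups (10 genes in 4 groups) in the 20 libraries 8 passed, and 0 of 40 did so in the 16 libraries. All 8 were libraries of animals 8 and 4. For Nfkbia the libraries labelled KO control replicate 4 and het control replicate 5 held 94.2 and 90.0 CPM, against 20.4 to 34.4 and 19.997 to 34.3 CPM in the other controls of their genotype. For Tnfaip3 the same 2 libraries held 233 and 125 CPM, against 17.2 to 50.8 and 14.4 to 43.4 CPM. The library labelled KO control replicate 4 also stood out for Nfkbiz, at 158 CPM against 24.4 to 38.4 CPM, and for Birc3, at 30.3 CPM against 10.6 to 14.6 CPM. The library labelled KO stimulated replicate 4 stood out for Nfkbiz, at 34.5 CPM against 314 to 381 CPM, and for Bcl3, at 10.9 CPM against 46.8 to 57.6 CPM.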

How the results depend on the processing

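With the 20 libraries DESeq2's Wald test called 1 of the 10 genes in KO and 4 in het cells where edgeR called 0, and leaving out 1 library gave 0 to 1 and 0 to 5. The 5 came without the library labelled het stimulated replicate 5, where 598 of 14777 genes were called higher and 146 lower in het cells. The 1, Bcl3, came without KO stimulated replicate 4, where 145 of 14773 were called higher and 7 lower in KO cells. In the 16 libraries the counts of the 10 genes stayed at 5 to 6 in KO and 6 to 8 in het cells when 1 library was left out, at 6 and 8 by DESeq2, 5 and 7 with the animal as a replicate block and 7 and 6 without animals 1 and 9. No call of the 16 libraries was lost under any alternative run. The replicate block changed no call other than that of Nfkbie in het cells. Over all genes, against 843 (KO) and 1046 (het) calls, DESeq2 made 1321 and 1675, the block 1672 and 2388, leaving out animals 5 and 7 gave 462 and 604, and animals 1 and 9 gave 1960 and 623. Of the pathway lists in the 16 libraries, leaving out animals 5 and 7 gave 1 adaptor and 3 ubiquitin regulators in KO cells, against 2 and 5, and 1 other Rel or IκB gene in het cells, against 2. The last count was also 1 with DESeq2 size factors and without a filter. The cause was not tested.

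Reversals touched uncalled values alone. For the Nfkb2 response in KO cells the block gave 0.011 with 20 and 0.066 with 16 libraries, leaving out animals 5 and 7 gave 0.050, and single libraries gave −0.147 to 0.032 (20) and −0.130 to 0.052 (16). Bcl3, KO over het after stimulation, was at −0.13 without animals 5 and 7 and at −0.085 to 0.218 without single libraries. The Nfkbie difference of responses was −0.000898 by DESeq2, −0.18 without animals 5 and 7, −0.12 with the block and −0.187 to 0.145 without single libraries. Without animals 1 and 9, KO over het after stimulation was 0.094 for Rela, 0.26 for Relb, 0.061 for Nfkbia, 0.024 for Nfkbiz and 0.25 for Birc3. In controls it was 0.030 for Relb, 0.086 for Nfkbiz, −0.092 for Tnfaip3 and 0.052 for Birc3, and the difference of responses was 0.048 for Rela, 0.23 for Relb, −0.062 for Nfkbiz and 0.19 for Birc3. Single libraries gave −0.121 to 0.042 for Nfkbiz and −0.115 to 0.012 for Rela after stimulation, −0.221 to 0.061 for Relb and −0.179 to 0.297 for Tnfaip3 in controls, and −0.268 to 0.051 for the Relb difference of responses.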
